A study of Mus musculus with 26 samples.

Results

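Antiviral interferon-stimulated effectors are the proteins with which a cell blocks virus entry, RNA replication and release after it has sensed interferon. The set described here held 40 genes of the IFIT, OAS, MX, IFITM, PARP and related groups, whose rows were taken by gene symbol. All 40 were among the 23420 symbols of the count table, and all 40 were among the 13311 genes tested. RNA had been sequenced from antigen-presenting cells of mouse lung and spleen, sorted by flow cytometry, in 26 libraries. KO stands for mice labelled mTORΔAPC, in which the growth kinase gene Mtor is disrupted in antigen-presenting cells, and WT for wild-type littermates. The labels name neither the promoter that drives the deletion nor the deleted exons. Spleen CD8a dendritic cells (DCs) and spleen CD11b DCs at steady state had 2 WT and 2 KO libraries each. Lung CD11b DCs and alveolar macrophages at steady state had 3 WT and 3 KO libraries each. Inflammatory DCs came from the lungs of mice given house dust mite extract into the nose (25 µL at 1 mg per mL, on several days a week), in 3 WT and 3 KO libraries; the sample labels give day 17 and the protocol day 18. The ages of the mice are not given in the sources used here. No label says that libraries of one group came from separate animals, so each p-value measures only the spread between these libraries, which may in part be technical. The comparison between KO and WT asks how loss of mTOR alters each cell type.

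Type I interferons bind the receptor chains IFNAR1 and IFNAR2, and the kinases JAK1 and TYK2 then set off signalling to the nucleus. There a transcription factor complex that includes IRF9 binds the interferon-stimulated response element (ISRE) in promoters of the effector genes. IRF7, itself an interferon-stimulated gene, amplifies the response. DCs and macrophages of the lung express these effectors at a low tonic level without infection, and alveolar macrophages are a known source of type I interferon in respiratory virus infection.

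Stretches of 6 promoters, all with an ISRE match, are shown as examples picked with the responses known. The genes behind 5 of them rose in both steady-state lung cell types of KO mice. The sixth, Ifitm2, rose in alveolar macrophages and not in lung CD11b DCs. The promoter windows came from RefSeq on GRCm38.p6 and run from 250 bases before to 50 bases after each annotated start. Windows were found for 31 of the 40 members. The ISRE core was searched as GAAA, any 2 bases (NN) and GAAA again, on both strands, with overlapping matches allowed, and was present in 13 of these 31 members (41.9%) and in 3.99% of the 27025 genes with a window. The interferon gamma element GAS was searched as TTCNNNGAA on both strands and was present in 8 of the 31 (25.8%) and in 9.55% of all genes. The 160 bases before the start of 6 members are printed below, with each ISRE match in capitals. TTTC at both ends of a capital run marks the core read on the opposite strand. The coordinates are chr19:34640729-34640888 for Ifit1 and chr19:34583369-34583528 for Ifit3 (plus strand), chr12:26456453-26456612 for Rsad2, chr4:156200819-156200978 for Isg15, chr8:71537473-71537632 for Bst2 and chr7:140955962-140956121 for Ifitm2 (minus strand).
Ifit1: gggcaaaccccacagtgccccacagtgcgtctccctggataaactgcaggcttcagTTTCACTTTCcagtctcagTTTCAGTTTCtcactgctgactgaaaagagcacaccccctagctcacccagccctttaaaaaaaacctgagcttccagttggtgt
Ifit3: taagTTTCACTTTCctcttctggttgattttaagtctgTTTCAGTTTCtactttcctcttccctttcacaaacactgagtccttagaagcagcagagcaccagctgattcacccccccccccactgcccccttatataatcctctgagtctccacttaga
Rsad2: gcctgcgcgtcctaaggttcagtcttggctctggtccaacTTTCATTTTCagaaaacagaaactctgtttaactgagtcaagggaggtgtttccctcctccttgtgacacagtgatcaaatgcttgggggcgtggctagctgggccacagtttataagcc
Isg15: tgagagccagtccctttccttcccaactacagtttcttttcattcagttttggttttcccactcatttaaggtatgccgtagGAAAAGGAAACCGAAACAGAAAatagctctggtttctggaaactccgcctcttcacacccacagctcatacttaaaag
Bst2: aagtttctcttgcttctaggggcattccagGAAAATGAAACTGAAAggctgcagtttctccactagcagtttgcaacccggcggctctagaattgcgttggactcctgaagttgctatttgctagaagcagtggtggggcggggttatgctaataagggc
Ifitm2: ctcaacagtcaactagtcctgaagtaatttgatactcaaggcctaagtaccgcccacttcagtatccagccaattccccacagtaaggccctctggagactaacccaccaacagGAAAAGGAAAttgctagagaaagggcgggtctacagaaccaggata
The first 5 belong to genes that rose in KO lung CD11b DCs and in KO alveolar macrophages. Ifitm2 carries a match as well, and its transcript rose in KO alveolar macrophages but not in KO lung CD11b DCs. These 6 do not stand for the set. No match was found in 18 of the 31 members with a window, among them Ifit2, Oasl1 and Ifi44, which rose in KO lung CD11b DCs. A match of letters is not a binding site, and binding was not measured.

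Several features of the libraries touch every result below. Libraries held 7.37 to 14.1 M reads and 12992 to 14407 genes above 0. Mtor was lower in every KO library than in every WT library of its cell type, with KO means between 54.2 and 89.1 normalized counts in the spleen cells and alveolar macrophages, but 260.9 in lung CD11b DCs and 216.7 in inflammatory DCs, against WT means of 360.2 to 412.0. The 3 libraries with the fewest genes above 0 were all of lung CD11b DCs (WT replicate 3, KO replicates 2 and 3). Normalized counts of 4 Y-linked genes summed to at most 2.28 in WT libraries of the steady-state cells and to at least 659.5 in all KO libraries of spleen cells and alveolar macrophages, so sex and genotype cannot be told apart there. The X-inactivation transcript Xist was also present in some of those KO libraries (3620 and 3092 in replicate 1 of spleen CD8a and CD11b DCs, against 12.0 and 21.4 in replicate 2, and 571.9 to 2293 in alveolar macrophages), so some KO libraries held Xist and Y-linked transcripts together and the replicates of a group differed in these. In KO lung CD11b DCs the sum was 1318 in replicate 1 and 0.82 and 1.35 in replicates 2 and 3, and it was 1420 or more in all inflammatory DC libraries. All 6 conventional DC markers were at 10 or more in every library, those of alveolar macrophages included. The 8 measured alveolar macrophage markers summed to 299423 to 308975 in WT alveolar macrophages but to 419276 to 1155820 in the inflammatory DC libraries, a sum carried by Chi3l3, while Siglec5, Marco and Ear1 were lower there than in every WT alveolar macrophage library. In sorted bulk samples, fewer cells of a type and less RNA per cell cannot be told apart.

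Among WT cells the antiviral transcripts were lowest in alveolar macrophages and highest in inflammatory DCs. The summed normalized count of the 40 members was 11039 to 11898 in WT alveolar macrophages, 18095 to 20902 in spleen CD8a DCs, 22478 to 26691 in lung CD11b DCs, 26723 to 30560.1 in spleen CD11b DCs and 37335 to 42034 in inflammatory DCs. Alveolar macrophages were the lowest of the 5 WT groups for 31 of 40 members, and inflammatory DCs the highest for 24. Per kilobase of exon, Ifitm3 was the most abundant member in WT lung CD11b DCs (7532 normalized counts per kilobase) and in both spleen DC types, Ifi27l2a in WT inflammatory DCs (3688) and Lgals3bp in WT alveolar macrophages (653).

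**Figure D1:**
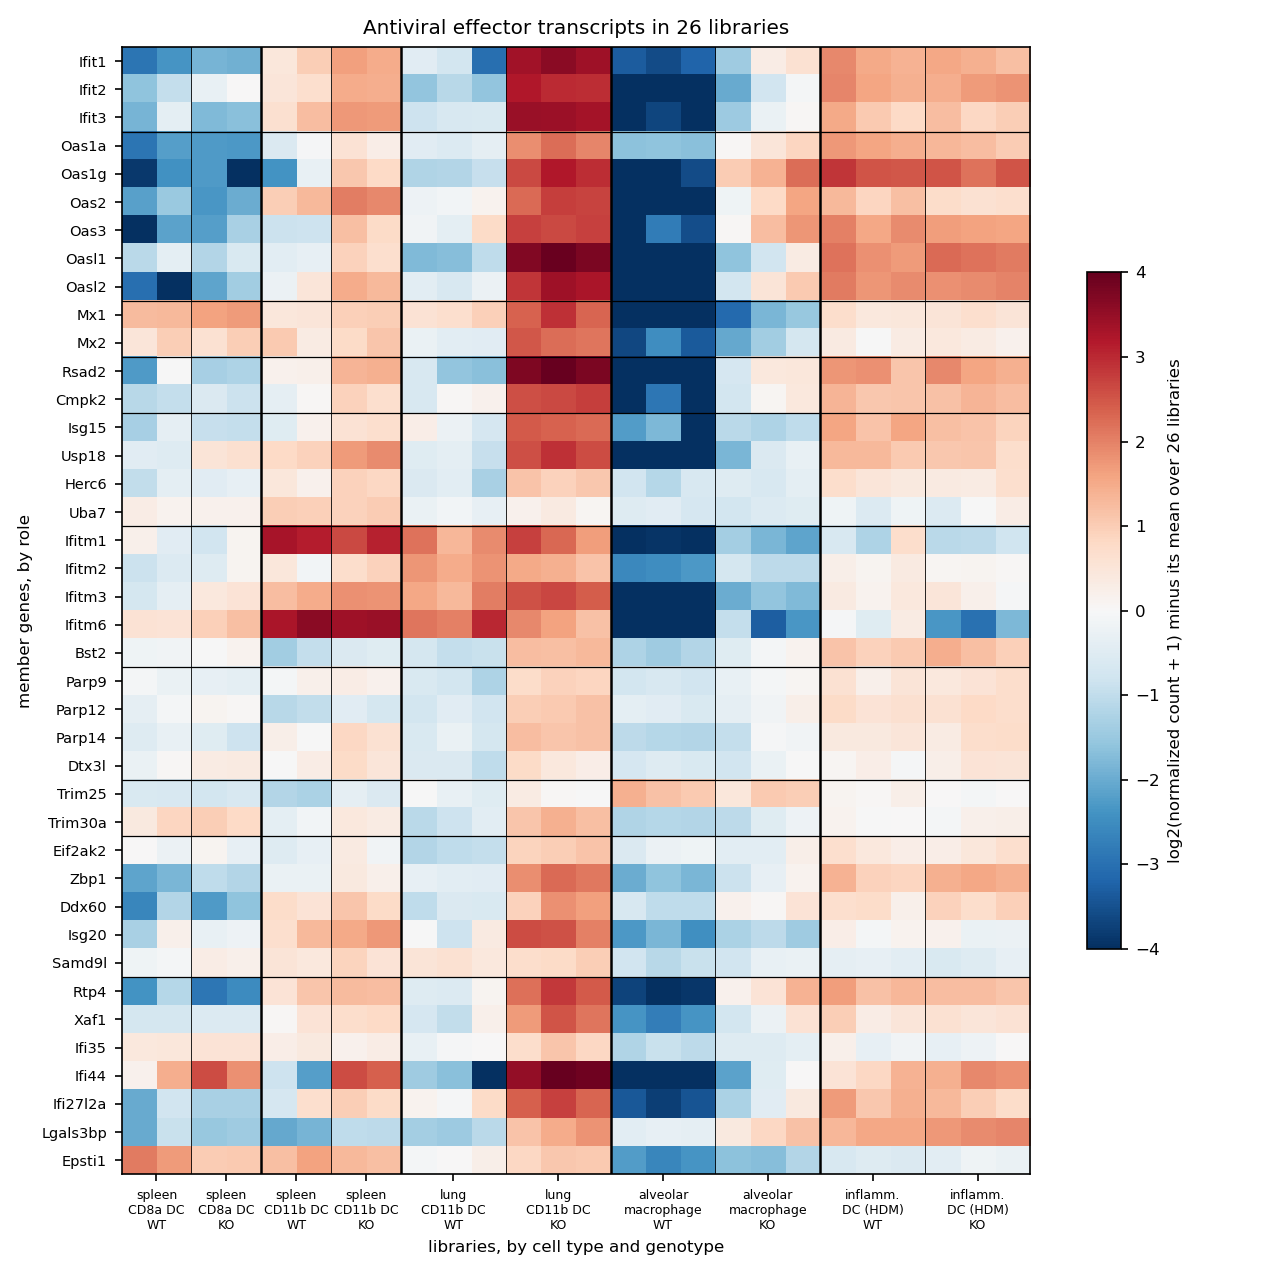
Each row is 1 of the 40 members and each column 1 of the 26 libraries; colour is log2(normalized count + 1) minus the gene's mean over all libraries, and lines separate roles, cell types and genotypes. WT alveolar macrophages are the lowest of the 10 groups for 30 members, and KO lung CD11b DCs are the highest of the 10 groups for 32 of the 40 members.

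WT alveolar macrophages were compared with WT lung CD11b DCs to describe the resting level in the 2 lung cell types. Differences here and below are on the log2(normalized count + 1) scale, with the standard error of the limma fit, and understate the change of genes with low counts. A gene was called at an adjusted p under 0.05 over all 13311 tested genes. Of the 40 members, 30 were lower in alveolar macrophages and 3 higher, while 51.2% of all tested genes were called either way (27.2% lower and 24.0% higher). Ifitm3, which blocks fusion of viral and endosomal membranes, had 62.8, 44.2 and 43.4 normalized counts in WT alveolar macrophages and 4736, 3939 and 6644 in WT lung CD11b DCs. The groups lay far apart, with a difference of -6.63 ± 0.17, limma adjusted p = 5.95e-19. Mx1, a GTPase known for blocking influenza virus, had 9.14, 14.3 and 5.42 against 521, 559 and 683 (-5.87 ± 0.29, limma adjusted p = 4.96e-14). Ifitm2 was lower by the same comparison (-4.13 ± 0.16, limma adjusted p = 4.82e-16). Higher in alveolar macrophages were Trim25, a ubiquitin ligase for the RNA sensor RIG-I (1.46 ± 0.14, limma adjusted p = 4.64e-09), Lgals3bp, a secreted glycoprotein (0.93 ± 0.21, limma adjusted p = 0.00055), and Eif2ak2, the double-stranded RNA-activated kinase PKR (0.72 ± 0.18, limma adjusted p = 0.00179). Trim25 had 3453, 2899.7 and 2671 in WT alveolar macrophages and 1285, 1064 and 929 in WT lung CD11b DCs, with no overlap.

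Resting levels also differed between DC subsets. WT spleen CD8a DCs against WT spleen CD11b DCs had 22 members lower and 5 higher (23.0% of all tested genes called, 10.8% lower and 12.2% higher). Oasl2, of the oligoadenylate synthetase family, had 66.0 and 30.4 in CD8a and 455 and 764 in CD11b DCs (-3.69 ± 0.38, limma adjusted p = 1.35e-07), and Oas1a (-2.24 ± 0.23, limma adjusted p = 1.28e-07) and Ifitm3 (-1.90 ± 0.21, limma adjusted p = 3.54e-07) were lower too. In the other direction Bst2, also called tetherin, which holds budding virions on the membrane, had 535 and 549 in CD8a against 231 and 317 in CD11b DCs (1.00 ± 0.18, limma adjusted p = 0.000176). Parp12, an ADP-ribosyltransferase (0.83 ± 0.16, limma adjusted p = 0.00037), and Trim30a, a ubiquitin ligase (0.87 ± 0.21, limma adjusted p = 0.00348), were higher as well. Trim30a has close copies in the genome and was not called without CD8a WT replicate 2 (adjusted p = 0.085) or without CD11b WT replicate 1 (adjusted p = 0.0587). Beside these values, 9 of 11 monocyte and macrophage markers were called higher in WT CD8a DCs and 2 lower. They summed to 12800 to 19279 in CD8a and 7915 to 9425 in CD11b DCs. Of 7 plasmacytoid DC markers 5 were called higher in CD8a DCs and 0 lower, with sums of 2187 to 3107 against 963 to 1029. The part of both marker lists was not tested.

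WT lung CD11b DCs had 21 members lower and 4 higher than WT spleen CD11b DCs (34.9% of all tested genes called, 13.8% lower and 21.1% higher). Without spleen CD11b WT replicate 2 the count of called members fell from 25 to 15. Ifit2 had 178, 247 and 179 in lung and 747 and 857 in spleen (-2.0 ± 0.33, limma adjusted p = 4.08e-05), so every lung library lay below both spleen libraries. Epsti1, an interferon-response gene named for epithelial-stromal interaction (-1.35 ± 0.16, limma adjusted p = 4.44e-07), and Uba7, the enzyme that activates ISG15 for conjugation (-1.20 ± 0.16, limma adjusted p = 3.06e-06), were also lower in lung. Ifitm2 (1.5 ± 0.18, limma adjusted p = 4.4e-07), Trim25 (0.97 ± 0.15, limma adjusted p = 3.01e-05) and Lgals3bp (0.66 ± 0.23, limma adjusted p = 0.0289) were higher in lung. The Lgals3bp call was lost without either spleen library, without lung WT replicate 3 and under equal totals, with adjusted p between 0.0657 and 0.184.

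WT inflammatory DCs of treated lungs were set against WT lung CD11b DCs of untreated lungs. Of the members 29 were higher and 6 lower (47.5% of all tested genes called, 23.7% higher and 23.8% lower). Lgals3bp had 6007, 6932 and 6931 in inflammatory DCs and 922, 881 and 1137 in lung CD11b DCs (2.76 ± 0.21, limma adjusted p = 2.31e-10). Bst2 (1.89 ± 0.15, limma adjusted p = 3.92e-10) and Oas1a (2.05 ± 0.19, limma adjusted p = 6.46e-09) were higher without overlap of libraries. Some members went the other way. Ifitm3 had 2081, 1779 and 2144 in inflammatory DCs (-1.32 ± 0.17, limma adjusted p = 1.13e-06), and Ifitm2 was lower too (-1.43 ± 0.16, limma adjusted p = 1.1e-07), as was Samd9l, a translation repressor that restricts poxviruses (-0.88 ± 0.13, limma adjusted p = 4e-06). Beside these values, all 8 measured alveolar macrophage markers were called higher in inflammatory DCs. Of 11 monocyte and macrophage markers 7 were higher and 1 lower, and of 6 conventional DC markers 1 was higher and 5 lower. Treatment, sorted population and sex all differ between these groups and cannot be told apart.

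In lung CD11b DCs most of the antiviral transcripts rose in KO mice. Of the 40 members 36 rose, where 26.1% of all tested genes were called, 12.0% higher and 14.0% lower. The median member difference was 2.34 on the log2(normalized count + 1) scale, against -0.05 over all tested genes. Every KO library lay above every WT library for 36 members (13.6% of all tested genes). The summed count of the 40 members was 77158 to 88932 in KO libraries. The 4 members not called were Ifitm1, Ifitm2, Ifitm6 and Samd9l.

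**Figure D2:**
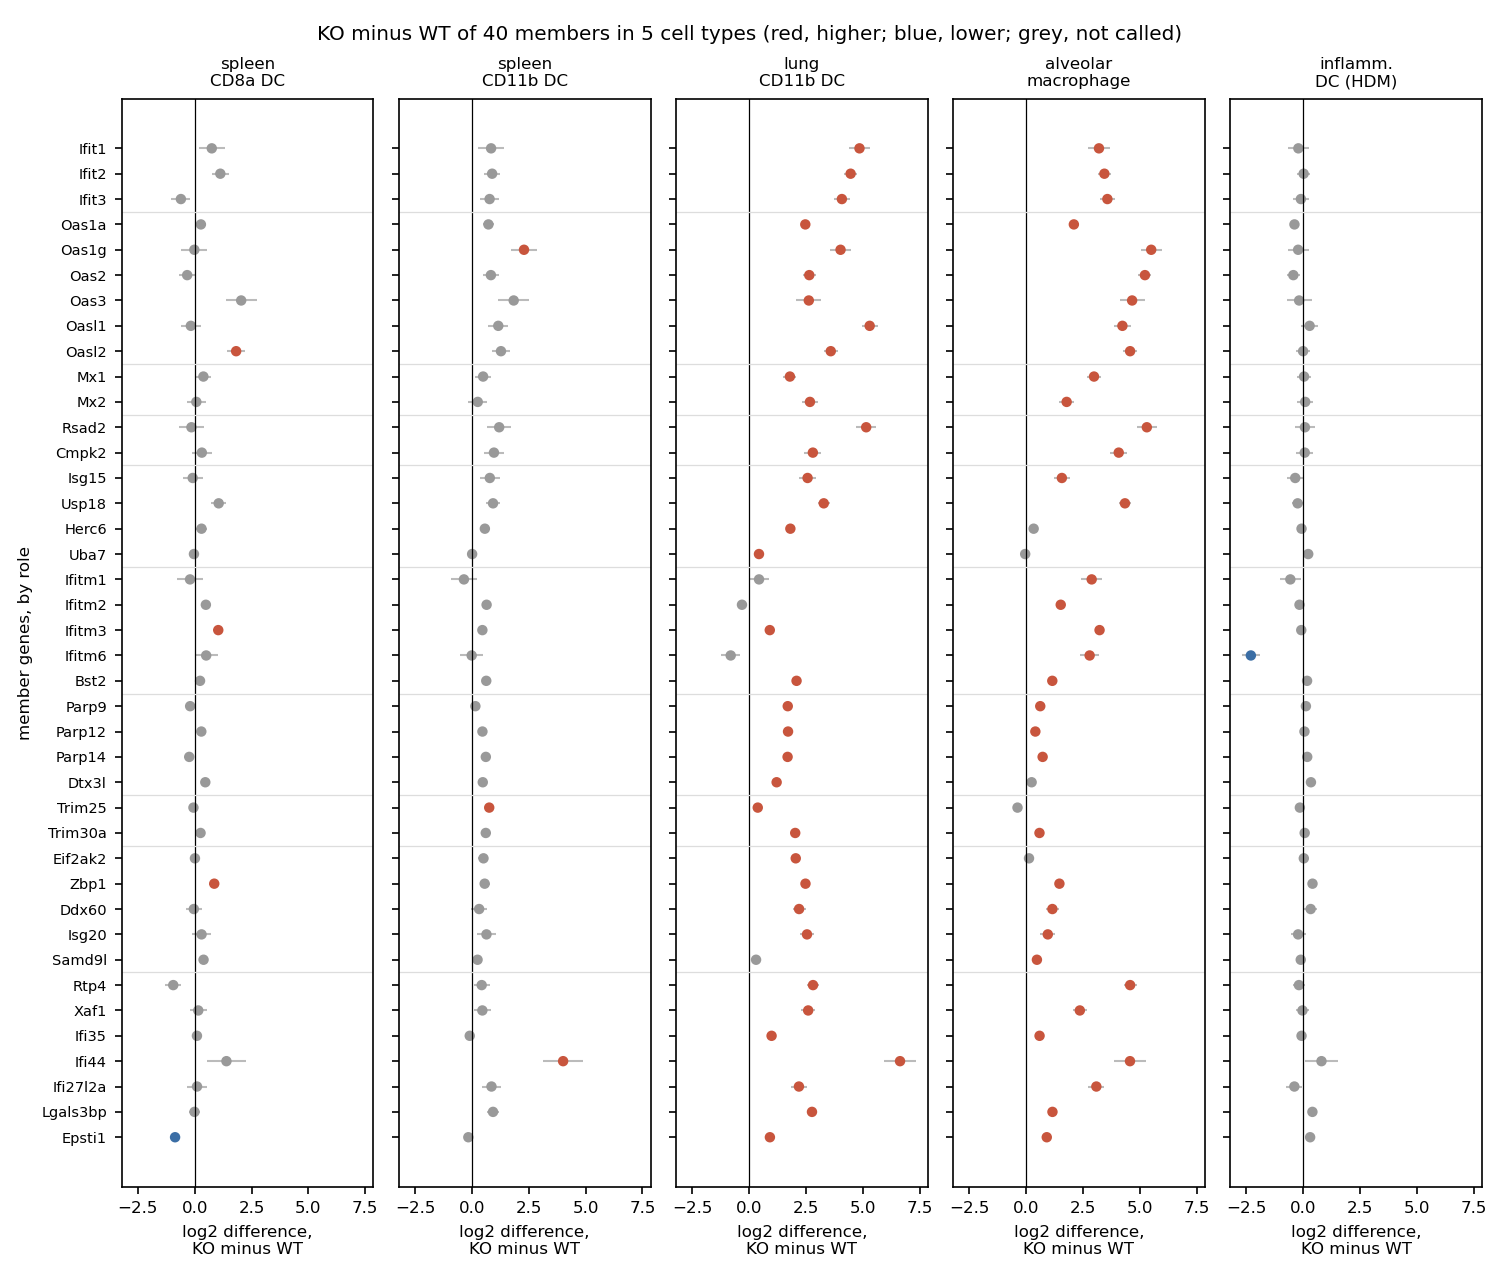
Points are log2 differences, KO minus WT, of the 40 members in each cell type and bars are standard errors from the limma fit; red points were called higher, blue lower and grey not called. In lung CD11b DCs 36 members and in alveolar macrophages 35 members lie to the right and are red, whereas in inflammatory DCs 1 blue point (Ifitm6) is the only coloured one.

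All 3 IFIT genes, whose proteins bind viral RNA that lacks the marks of self, rose, with a median difference of 4.47. Ifit2 had 178, 247 and 179 normalized counts in WT and 4892, 4262 and 4139.7 in KO libraries. The lowest KO library was above the highest WT library, and the difference was 4.47 ± 0.29, limma adjusted p = 6.51e-10, a 22.1-fold rise. Ifit1 had 124, 102 and 20.2 in WT and 1769, 2089 and 1772 in KO libraries. WT replicate 3 stood below the other two WT libraries for Ifit1. Ifit3 shares sequence with a near copy in the genome, so its reads are uncertain.

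All 6 OAS genes rose, with differences from 2.47 to 5.30. OAS1 to OAS3 enzymes sense double-stranded RNA and make the messenger that switches on RNase L, while Oasl1 has lost that activity and is known to hold back translation of Irf7 mRNA. Oasl1 had 26.0, 27.5 and 44.3 in WT and 1194, 1437 and 1251 in KO libraries (5.30 ± 0.36, limma adjusted p = 8.78e-10, 39.5-fold). Groups did not overlap. Oas3 had 169, 145 and 319 in WT and 1264, 1169.7 and 1266 in KO libraries, with WT replicate 3 above the other two WT libraries. Oas1a and Oas1g lie side by side among further Oas1 copies on chromosome 5, so the split of reads between them is uncertain.

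Rsad2, or viperin, makes a nucleotide that ends viral RNA chains, and Cmpk2, its neighbour on chromosome 12, is a nucleotide kinase that supplies it. Rsad2 had 139, 73.0 and 67.7 in WT and 2920.3, 3650.3 and 2984 in KO libraries (5.15 ± 0.44, limma adjusted p = 1.37e-08, 35.5-fold), with WT replicate 1 the highest of the WT libraries. Cmpk2 had 134, 217 and 235 in WT and 1269, 1304 and 1436 in KO, and both genes rose. The 2 MX GTPases rose as well. Mx1 had 521, 559 and 683 in WT and 1781, 2653 and 1775 in KO libraries, where KO replicate 2 was the highest (1.80 ± 0.29, limma adjusted p = 7.28e-05, 3.48-fold). Mx2 rose from 44.4, 40.2 and 38.7 to 309, 259 and 241 and is annotated as a polymorphic pseudogene.

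All 4 genes of ISG15 conjugation rose, from Uba7 at 0.44 to Usp18 at 3.29. Isg15, a ubiquitin-like modifier, had 243, 171 and 127 in WT and 1112, 1052 and 969 in KO libraries (2.57 ± 0.36, limma adjusted p = 1.36e-05, 5.95-fold). Usp18 removes ISG15 from proteins and also dampens signalling of the type I interferon receptor. It had 449, 480.0 and 331 in WT and 3695, 4687 and 3846 in KO libraries (3.29 ± 0.26, limma adjusted p = 5.67e-09, 9.75-fold). Neither gene overlapped between genotypes. The conjugating ligase Herc6 had 301, 331 and 181 in WT and 979, 856 and 952 in KO.

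Smaller rises were seen in the ADP-ribosylation and TRIM groups. All 4 of Parp9, Parp12, Parp14 and Dtx3l rose, with differences from 1.21 to 1.72. Parp14 had 491, 623 and 464 in WT and 1748, 1635 and 1693 in KO libraries (1.70 ± 0.17, limma adjusted p = 1.5e-07, 3.24-fold). Parp9 and its partner Dtx3l overlap head to head on chromosome 16, and the strand setting of the counting is not given, so reads in the overlap cannot be assigned. Trim30a rose by 2.03. Trim25 rose by 0.38, the smallest called difference, and its libraries overlapped between WT (1285, 1064 and 929) and KO (1645, 1349 and 1271). Parp12, which is known to shut down translation of viral RNA, had 505, 613 and 493 in WT and 1663, 1725 and 1893 in KO libraries.

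Of the 5 genes that sense nucleic acids or stop translation 4 rose. Eif2ak2 had 206, 227 and 238 in WT and 856, 921 and 1022 in KO libraries (2.05 ± 0.18, limma adjusted p = 1.81e-08, 4.15-fold). Zbp1, which binds Z-form nucleic acids and can trigger necroptosis, had 309, 291 and 285 in WT and 1414, 1888 and 1687 in KO (2.48 ± 0.18, limma adjusted p = 2.47e-09, 5.59-fold). Both sets of libraries were apart. Samd9l missed the threshold, with 2175, 2359 and 2054 in WT and 2511, 2628 and 3038 in KO libraries (0.31, limma adjusted p = 0.0725). The other 7 interferon-induced genes all rose, from Epsti1 at 0.92 to Ifi44 at 6.64. Ifi44, a cytoplasmic protein of the response whose role is less clear, had 15.2, 12.7 and 0 in WT and 493, 694 and 637 in KO libraries, so its WT level was close to the lowest that could be measured and the size of its difference depends on the pseudocount. Lgals3bp had 922, 881 and 1137 in WT and 5253, 6758 and 8235 in KO libraries, all apart. Ifi27l2a, a small protein of mitochondria and the nuclear envelope, had 697, 622 and 1094 in WT and 3343, 4291 and 3176 in KO, and became second to Ifitm3 in level per kilobase in KO libraries (7782 normalized counts per kilobase against 13875).

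**Figure D3:**
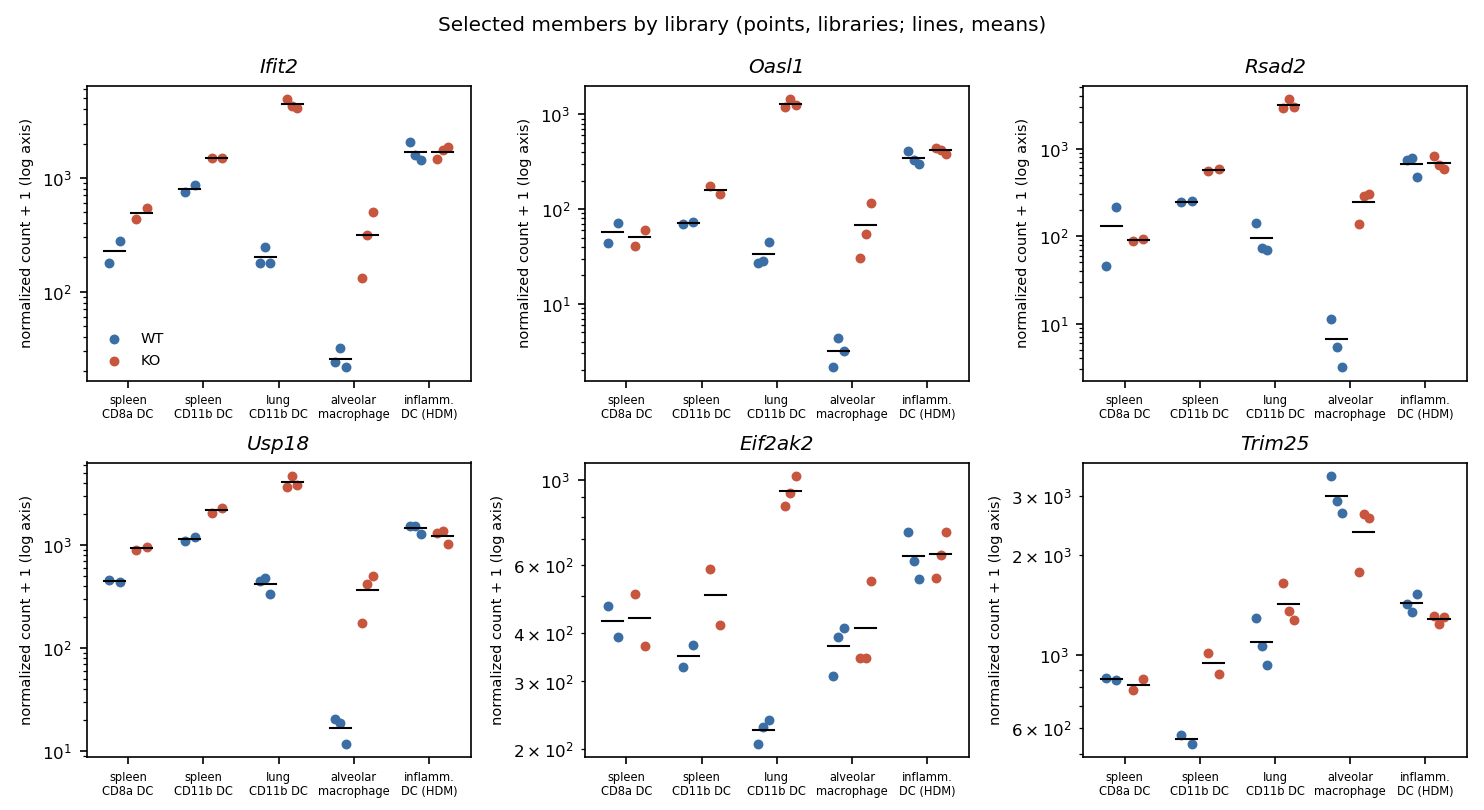
Normalized count + 1 on a log axis for 6 members in every library; blue points are WT, red points KO and lines are group means. Ifit2, Oasl1, Rsad2 and Usp18 are far higher in KO than in WT for lung CD11b DCs and alveolar macrophages and overlap in inflammatory DCs. Eif2ak2 overlaps between genotypes in alveolar macrophages, and Trim25 is highest in WT alveolar macrophages.

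The 5 membrane proteins were split in lung CD11b DCs, where Bst2 and Ifitm3 rose and Ifitm1, Ifitm2 and Ifitm6 were not called. Bst2 had 373, 314 and 329 in WT and 1438, 1392 and 1493 in KO libraries (2.09 ± 0.15, limma adjusted p = 1.17e-09, 4.26-fold). Ifitm3 had 4736, 3939 and 6644 in WT and 9415, 10173 and 8635 in KO and rose by a smaller factor (0.91 ± 0.17, limma adjusted p = 0.00039, 1.88-fold), from the highest starting level of any member per kilobase. Ifitm2 had 3208, 2636 and 3273 in WT and 2694, 2568 and 2099 in KO libraries, which overlapped (-0.31, limma adjusted p = 0.157). Ifitm6 had 546, 499 and 996 in WT and 474, 381 and 281 in KO libraries, with every KO library below every WT library and no call (adjusted p = 0.153). By edgeR, Ifitm6 fell in this comparison. The 4 IFITM genes lie together on chromosome 7 between positions 140954837 and 141017924 of GRCm38.

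Markers of other cell types moved with the same contrast. Markers of cDC2 (7 of 7 measured) summed to 61860 to 68817 in WT and 23484 to 34082 in KO lung CD11b DCs, and conventional DC markers to 191161 to 229123 and 131793 to 166509. Those of monocytes and macrophages (11 of 12 measured) summed to 37269 to 44967 and 49515 to 61074, and of the 11, 4 rose and 1 fell. Markers of cDC1 (8 of 8 measured) summed to 2158 to 2656 in WT and 3436 to 4447 in KO, and of the 8, 1 (Irf8) rose and 3 fell. Plasmacytoid DC markers summed to 917 to 1211 in WT and 859 to 1189 in KO, and 2 of 7 rose. Of all tested genes 12.0% rose and 14.0% fell. The part of these markers in the rise of the antiviral genes was not tested. Without KO replicate 1, the KO library with the high Y-linked sum, 36 members were called. With the 3 lung libraries of fewest genes left out together, which was tried after the data were seen, 34 rose.

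Alveolar macrophages of KO mice gained much of the same set from a lower start. Of the 40 members 35 rose (16.9% of all tested genes were called, 10.5% rose), with a median difference of 1.94 against 0.02 over all tested genes. Every KO library lay above every WT library for 34 members (23.1% of all tested genes). The summed count of the members was 15819 to 27318 in KO libraries, against 11039 to 11898 in WT. KO replicate 1 had the lowest sum of the KO libraries. The 5 members not called were Herc6, Uba7, Dtx3l, Trim25 and Eif2ak2.

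All 6 OAS genes rose, with a median difference of 4.61. Oas2 had 10.3, 8.83 and 14.1 in WT and 234, 465 and 793 in KO libraries (5.22 ± 0.29, limma adjusted p = 4.7e-12, 37.3-fold). Usp18 had 19.4, 17.7 and 10.8 in WT and 175, 421 and 506 in KO (4.34 ± 0.26, limma adjusted p = 1.77e-11, 20.3-fold), and Rtp4, a chaperone-like protein with activity against flaviviruses, had 27.4, 22.1 and 23.9 in WT and 418, 537 and 968 in KO (4.57 ± 0.28, limma adjusted p = 3.54e-11, 23.7-fold). In all 3 genes KO replicate 1 was the lowest and KO replicate 3 the highest KO library, and all KO libraries were above all WT libraries. The Rtp4 locus overlaps Masp1 on the opposite strand. Ifi44 was at 0 in all 3 WT libraries and at 8.85, 29.6 and 42.9 in KO libraries, at least 24.4-fold higher when 3 reads over the WT group are taken as the floor. With Ifi44 at that bound the median over members was still 1.94. Rsad2 had 10.3, 4.42 and 2.17 in WT and 135, 289 and 301 in KO libraries. Ifit2 had 22.8, 30.9 and 20.6 in WT and 131, 315 and 502 in KO, and Oasl1 1.14, 3.31 and 2.17 in WT and 29.2, 53.8 and 116 in KO. These 3 genes were low in all WT and higher in all KO libraries, yet their KO levels stayed below those of every KO lung CD11b DC library.

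All 5 IFITM and tetherin genes rose in KO alveolar macrophages. Ifitm3 had the smallest p of the set, with 62.8, 44.2 and 43.4 in WT and 404, 545 and 473 in KO libraries (3.23 ± 0.17, limma adjusted p = 2.92e-12, 9.36-fold). Ifitm2 had 158, 170.0 and 191 in WT and 579, 458 and 459 in KO, and Ifitm6 3.43, 2.21 and 3.25 in WT and 62.8, 11.6 and 23.8 in KO. Ifitm1 had 0, 1.1 and 0 in WT and 11.5, 8.06 and 6.39 in KO libraries. The KO levels of all 4 IFITM genes stayed below those of every WT and KO lung CD11b DC library. Rises were small in the ADP-ribosylation and TRIM groups, with a median of 0.51 and 3 of 4 called in the first and of 0.10 and 1 of 2 called in the second. Parp14 had 365, 340.0 and 333 in WT and 385, 719.6 and 674 in KO libraries, and Trim30a 664, 695 and 672 in WT and 733, 1091 and 1311 in KO. KO replicate 1 was close to WT for both. Trim25 was the one member with every KO library below every WT library (3453, 2899.7 and 2671 in WT and 1766, 2655 and 2579.8 in KO, adjusted p = 0.0633). Among the other uncalled members Uba7 had 718, 737 and 641 in WT and 608, 702 and 727 in KO libraries (limma adjusted p = 0.91), and Eif2ak2 309.5, 391 and 412 in WT and 343, 345 and 545 in KO (adjusted p = 0.743).

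**Figure D4:**
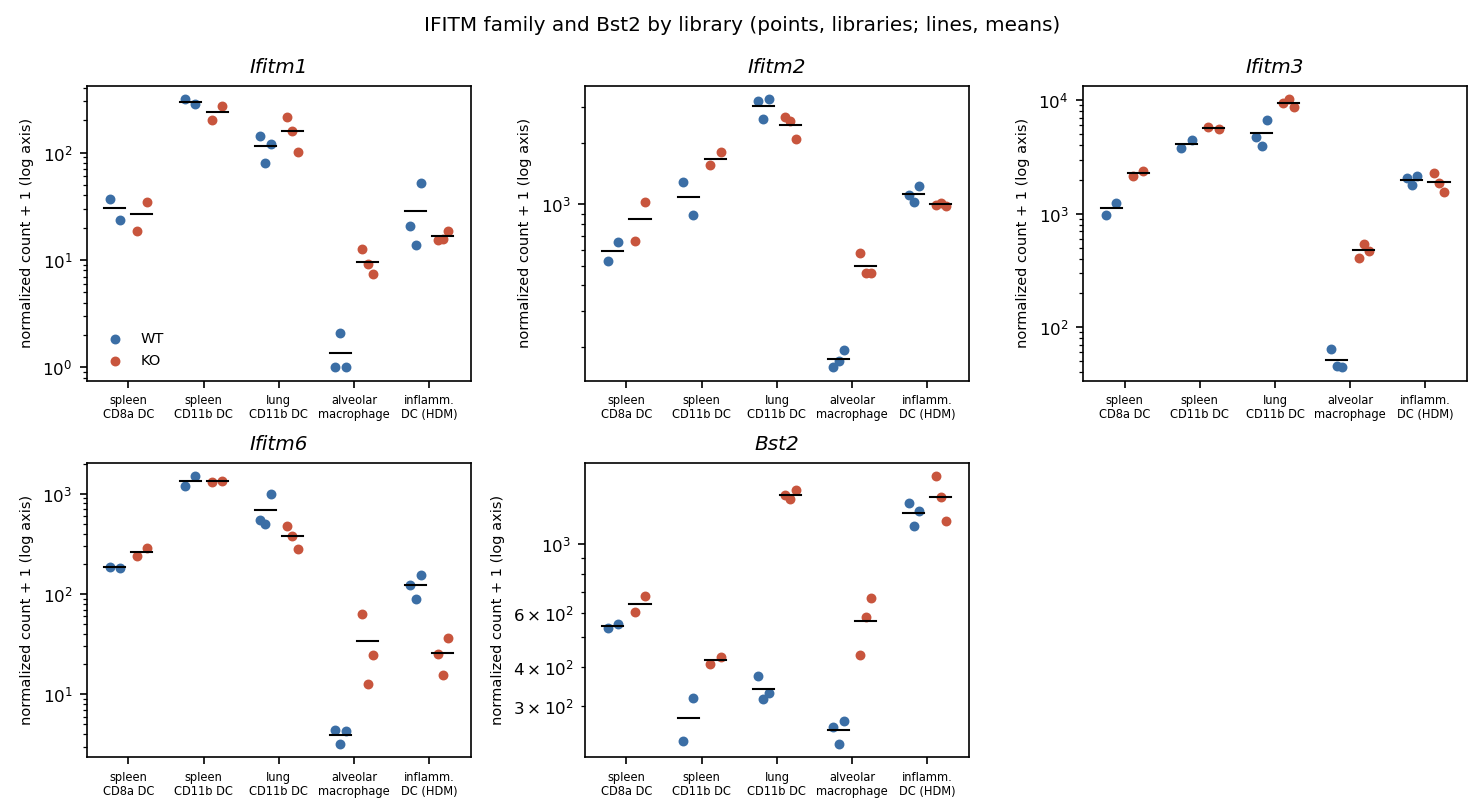
Normalized count + 1 on a log axis for the 4 IFITM genes and Bst2 in every library; blue points are WT, red points KO and lines are group means. In alveolar macrophages all 5 genes are higher in every KO than in every WT library, while in lung CD11b DCs Ifitm1 and Ifitm2 overlap between genotypes and Ifitm6 is lower in KO.

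Other markers changed with genotype in alveolar macrophages too, where 10.5% of all tested genes rose and 6.39% fell. The alveolar macrophage markers summed to 299423 to 308975 in WT and 170735 to 190520 in KO, with 1 of 8 called lower. Conventional DC markers summed to 14595 to 15631 in WT and 21828 to 22921 in KO, with 1 of 6 called higher and 1 lower. Of 11 monocyte and macrophage markers 5 rose and 1 fell, and 3 of 7 cDC2 markers rose. All 4 measured T cell markers rose (sums of 9.76 to 12.6 in WT and 65.5 to 115.6 in KO), as did 2 of 7 plasmacytoid DC and 2 of 5 NK cell markers, and of 6 tested neutrophil markers 3 rose and 1 fell. Their part in the result was not tested. With any 1 library of the comparison left out, 32 to 34 members were called.

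The 2 lung cell types shared 31 risen members, 86.1% of the 36 in lung CD11b DCs and 88.6% of the 35 in alveolar macrophages. These comparisons share no library. Across the 40 members the log2 differences in both cell types had Pearson's r of 0.620 and Spearman's rho of 0.702, given as a description across genes fitted together, which are not independent. The difference was larger in lung CD11b DCs for 25 members and in alveolar macrophages for 15.

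A test of the difference between the KO effects separated 2 groups of members. It called 20 of the 40 (16.8% of all tested genes, 10.2% higher and 6.6% lower in alveolar macrophages), 8 with a higher value in alveolar macrophages and 12 with a higher value in lung CD11b DCs. The 8 included all 4 IFITM genes, with Oas2, Mx1, Usp18 and Rtp4. Ifitm3 was the clearest (2.31 ± 0.24, limma adjusted p = 7.02e-07), with Ifitm2 (1.83 ± 0.22, limma adjusted p = 5.9e-06) and Oas2 (2.57 ± 0.40, limma adjusted p = 0.00011) next. The 12 with a higher value in lung CD11b DCs included Eif2ak2 (-1.93 ± 0.25, limma adjusted p = 1.49e-05), Parp12 (-1.31 ± 0.18, limma adjusted p = 2.91e-05) and Trim30a (-1.45 ± 0.24, limma adjusted p = 0.000219), as well as Parp9, Parp14, Dtx3l, Herc6, Bst2, Trim25, Zbp1, Isg20 and Lgals3bp. With the 3 lung libraries of fewest genes left out 15 members were called.

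Spleen DCs showed a smaller shift. In KO spleen CD11b DCs 3 members rose (1.52% of all tested genes were called, 1.28% rose), yet every KO library lay above every WT library for 33 members, against 24.5% of all tested genes. The median member difference was 0.62, with 0 over all tested genes. Summed counts were 26723 to 30560.1 in WT and 39525 to 41721 in KO libraries. Ifi44 had 23.3 and 8.46 in WT and 266 and 223 in KO libraries (4.01 ± 0.87, limma adjusted p = 0.0169). Trim25 had 571 and 537 in WT and 1009.8 and 875 in KO (0.76 ± 0.17, limma adjusted p = 0.0197), and Oas1g 13.5 and 60.9 in WT and 160.3 and 132 in KO (2.29 ± 0.57, limma adjusted p = 0.0415). The libraries did not overlap for these 3 genes, but their calls rested on single libraries. Without KO replicate 1 or without KO replicate 2 no member was called by limma at adjusted p, and without WT replicate 2 there was 1. Among the uncalled members, 3 examples show the sizes of the gaps. Ifit2 had 747 and 857 in WT and 1489.5 and 1479 in KO libraries, and Usp18 1086 and 1190.0 in WT and 2047 and 2294 in KO. Oasl2 had 455 and 764 in WT and 1528 and 1343 in KO libraries, with WT replicate 1 the lowest. Beside these values, 2 of 11 monocyte and macrophage markers rose, with sums of 7915 to 9425 in WT and 12139 to 13228 in KO, and their part was not tested. By DESeq2 6 members rose, and 20 rose when the fit held only these 4 libraries, with 23 at an unadjusted p under 0.05 in the fit over all libraries. Shares of all tested genes called, here and below, belong to the main fit at adjusted p and not to other settings or unadjusted p.

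In KO spleen CD8a DCs 3 members rose and 1 fell (5.13% of all tested genes were called, 1.5% rose and 3.63% fell). Every KO library was above every WT library for 17 members (23.1% of all tested genes) and below for 3 (Parp9, Rtp4 and Epsti1; 23.6%). Ifitm3 had 981 and 1244 in WT and 2154 and 2379 in KO libraries (1.03 ± 0.21, limma adjusted p = 0.00288). Oasl2 had 66.0 and 30.4 in WT and 125 and 208 in KO (1.82 ± 0.38, limma adjusted p = 0.00383), and Zbp1 90.8 and 110.5 in WT and 194 and 172 in KO (0.86 ± 0.22, limma adjusted p = 0.0237). Epsti1 fell, from 2838 and 2196 to 1353 and 1389 (-0.86 ± 0.17, limma adjusted p = 0.00263). Usp18, with 453 and 439.9 in WT and 889.8 and 967 in KO libraries, and Ifit2, with 176 and 278 in WT and 436 and 538 in KO, were higher in both KO libraries and not called (adjusted p = 0.0542 and 0.0746). Rsad2 had 44.5 and 216 in WT, an unequal pair, and 86.6 and 91.3 in KO libraries. Each of the 4 calls was lost in at least 1 alternative, and without WT replicate 1 or without KO replicate 2 only 2 members were called. Beside these values, 9 of 11 monocyte and macrophage markers fell, with sums of 12800 to 19279 in WT and 2347 to 2598 in KO, and their part was not tested. The test of the KO effect in CD8a against CD11b DCs of the spleen called 0 members by limma, edgeR or DESeq2 (2.45% of all tested genes, 2.25% with the lower value in CD8a DCs), with 10 at an unadjusted p under 0.05, all with the lower value in CD8a DCs. Without CD8a WT replicate 1 there were 3, and without CD8a KO replicate 1 or CD11b WT replicate 2 there was 1.

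For most members the KO effect in lung CD11b DCs exceeded that in spleen CD11b DCs. The difference was called for 28 members (12.5% of all tested genes, 5.86% higher and 6.6% lower in lung), 27 of them with a higher value in lung. The median was 1.64. Ifit2 (3.58 ± 0.47, limma adjusted p = 5.47e-05), Oasl1 (4.14 ± 0.57, limma adjusted p = 8.79e-05) and Parp9 (1.55 ± 0.22, limma adjusted p = 0.000151) had the smallest p. Ifitm2 was the 1 member with a lower value in lung (-0.96 ± 0.25, limma adjusted p = 0.014): its spleen libraries had 1288 and 884 in WT and 1554 and 1797 in KO. That call was lost without spleen CD11b WT replicate 2 (difference of -0.69) and without KO replicate 2 (-0.85). It was also lost with the 3 lung libraries of fewest genes left out (-0.76). Each of these fits leaves 1 library in a group. Averaged over the 5 cell types, 36 members were called, all higher in KO (17.7% of all tested genes called, 9.53% higher and 8.17% lower). This average does not describe each cell type. The median member difference was 2.34 in lung CD11b DCs and 1.94 in alveolar macrophages. It was 0.62 in spleen CD11b DCs, 0.19 in spleen CD8a DCs and -0.02 in inflammatory DCs.

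In inflammatory DCs hardly any member differed between genotypes beyond the spread of the libraries. Of the 40 members 1 was called (3.37% of all tested genes, 1.45% higher and 1.92% lower), and the median difference was -0.02, the same as over all tested genes (-0.02). Every KO library was above every WT library for 4 members (Zbp1, Ifi44, Lgals3bp and Epsti1; 9.83% of all tested genes) and below for 5 (Oas1a, Oas2, Ifitm2, Ifitm6 and Trim25; 11.1%). By limma 0 members rose, with 2 higher at an unadjusted p under 0.05 (Zbp1 and Epsti1) and 0 by edgeR or DESeq2. Summed counts were 37335 to 42034 in WT and 39666 to 41269 in KO libraries. Ifit2 had 2051, 1584 and 1446 in WT and 1478, 1745 and 1876 in KO libraries, and Usp18 1535, 1543 and 1289.8 in WT and 1321, 1357 and 1016 in KO. Both genotypes thus lay between WT and KO lung CD11b DCs for Ifit2. Oasl1 had 412, 329 and 296 in WT and 444, 418 and 385 in KO, Isg15 613, 445 and 607 in WT and 473, 446 and 375 in KO, and the libraries overlapped for both. Bst2 had 1357, 1145 and 1273 in WT and 1656, 1418 and 1187 in KO libraries, which overlapped as well. The called member was Ifitm6, which fell from 121, 88.6 and 155 to 23.9, 14.6 and 35.2 (-2.31 ± 0.41, limma adjusted p = 0.00226, 4.95-fold). It was called in all fits that left out 1 library. Beside these values, 3 of 8 alveolar macrophage markers fell in KO, while of 6 conventional DC markers 1 rose and 3 fell (sums of 81473 to 93001 in WT and 88904 to 130676 in KO). Their part was not tested.

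The KO effect was lower in inflammatory than in lung CD11b DCs for 34 members (13.0% of all tested genes called, 6.95% lower), with a median difference of -2.22. The smallest p belonged to Oas1a (-2.86 ± 0.27, limma adjusted p = 5.74e-07), Ifit2 (-4.45 ± 0.42, limma adjusted p = 5.74e-07) and Oasl1 (-5.03 ± 0.51, limma adjusted p = 1.26e-06). Oas1a had 1495, 1321 and 1209 in WT and 1123, 1056 and 894 in KO inflammatory DCs, against 323, 302 and 343 in WT and 1604, 2104 and 1713 in KO in lung CD11b DCs. The Mtor differences were -0.70 ± 0.22 in lung CD11b DCs (limma adjusted p = 0.0205) and -0.74 ± 0.22 in inflammatory DCs (limma adjusted p = 0.0668). Mtor was thus called in the first and not in the second. The difference between these KO effects on Mtor was not called (-0.04 ± 0.31, limma adjusted p = 0.96).

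Other genes of the interferon pathway were counted from 3 lists of regulators, sensors and further target genes. In KO lung CD11b DCs 12 of 26 tested genes of interferon ligands, receptors and signalling rose and 4 fell. Of all tested genes 12.0% rose and 14.0% fell. Several transcription factors were among the 12 signalling genes that rose. Irf7 rose from 796, 850.1 and 927 to 7414, 6276 and 7432 (3.03 ± 0.27, limma adjusted p = 2.17e-08) and Irf9 from 673, 777 and 860.2 to 1310.0, 1499 and 1508 (0.91 ± 0.17, limma adjusted p = 0.000321). Stat2 (1.67 ± 0.20, limma adjusted p = 1.31e-06) and Irf8 (1.40 ± 0.16, limma adjusted p = 9.98e-07) rose also, and so did the receptor chains Ifnar1, Ifnar2 and Ifngr2. Irf8 is also on the list of cDC1 markers. Ifngr1, Jak1, Socs3 and Ptpn11 fell. Of 13 nucleic acid sensors and adaptors 9 rose and 2 fell. The falls in both lists were near the share of all tested genes that fell. Of 24 further target genes 23 rose, among them Phf11d (2.72 ± 0.22, limma adjusted p = 7.03e-09), the immunity GTPase Irgm1 (2.00 ± 0.17, limma adjusted p = 9.21e-09) and the Schlafen genes Slfn2 (1.33 ± 0.12, limma adjusted p = 1.59e-08) and Slfn5 (2.18 ± 0.20, limma adjusted p = 3.48e-08).

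Transcripts of the interferons themselves were scarce. Ifnb1, the gene of interferon beta, had 58.5, 50.8 and 10.5 normalized counts in WT and 10.7, 16.4 and 18.2 in KO lung CD11b DCs, with 2 WT libraries above all KO libraries and no call. It was at 0 in all spleen libraries and had 3.43, 0 and 0 in WT and 10.6, 0 and 0.91 in KO alveolar macrophages. Ifna2 was at 0 in all 3 WT libraries of lung CD11b DCs and had 3.88, 18.9 and 4.05 in KO, and Ifna4 was at 0 in the WT libraries and had 6.78, 0 and 14.2 in KO. Neither passed the filter on low values, so neither was tested. Ifng, the gene of interferon gamma, had 0, 3.17 and 1.61 in WT and 0, 0 and 10.1 in KO lung CD11b DCs.

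In KO alveolar macrophages 9 of the 26 signalling genes rose and 3 fell, 3 of 13 sensors rose and 1 fell, and 18 of 24 further target genes rose. Of all tested genes 10.5% rose and 6.39% fell. Irf7 rose from 70.8, 69.5 and 74.8 to 411, 1126 and 1340.1 (3.56 ± 0.27, limma adjusted p = 1.06e-09), and KO replicate 1 was again the lowest KO library. Irf9 (1.30 ± 0.17, limma adjusted p = 3.85e-06), the shared cytokine receptor chain Il10rb (0.94 ± 0.13, limma adjusted p = 8.41e-06) and the feedback inhibitor Socs3 (1.23 ± 0.18, limma adjusted p = 1.72e-05) rose. Stat2 rose less (0.65 ± 0.20, limma adjusted p = 0.0229) and lost its call in 4 of 6 refits that each dropped a single library, with adjusted p from 0.07 to 0.155. Slfn5 (4.05 ± 0.20, limma adjusted p = 7.85e-13), Slfn8 (3.29 ± 0.19, limma adjusted p = 1.41e-11), Phf11d (2.11 ± 0.22, limma adjusted p = 1.9e-07) and the nuclear body protein Sp100 (1.13 ± 0.12, limma adjusted p = 2.73e-07) had the smallest p among the further target genes.

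In KO inflammatory DCs, where no member rose, 2 of the 26 signalling genes and 5 of the 24 further target genes did. Of all tested genes 1.45% rose. The guanylate-binding protein Gbp2 had 2212, 2835 and 2380.5 in WT and 3454, 7301 and 8095 in KO (1.26 ± 0.27, limma adjusted p = 0.0104), and Irf1, a factor known for its induction by interferon gamma, 1383, 2013 and 2064 in WT and 2343, 3289 and 4112 in KO (0.82 ± 0.19, limma adjusted p = 0.0141). KO replicates 2 and 3 were high for these genes and KO replicate 1 lay nearest to WT. Tap1 (0.60 ± 0.13, limma adjusted p = 0.0122), Psmb9 (0.49 ± 0.11, limma adjusted p = 0.0158) and Psmb8 (0.33 ± 0.09, limma adjusted p = 0.0378), which serve peptide supply for MHC class I, rose by smaller amounts. The calls of these 5 genes were lost without WT replicate 1, without KO replicate 2 or without KO replicate 3 (limma adjusted p = 0.053 to 0.179). Ifng had 0, 1.15 and 2.00 in WT and 0, 0 and 2.51 in KO libraries.

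**Figure D5:**
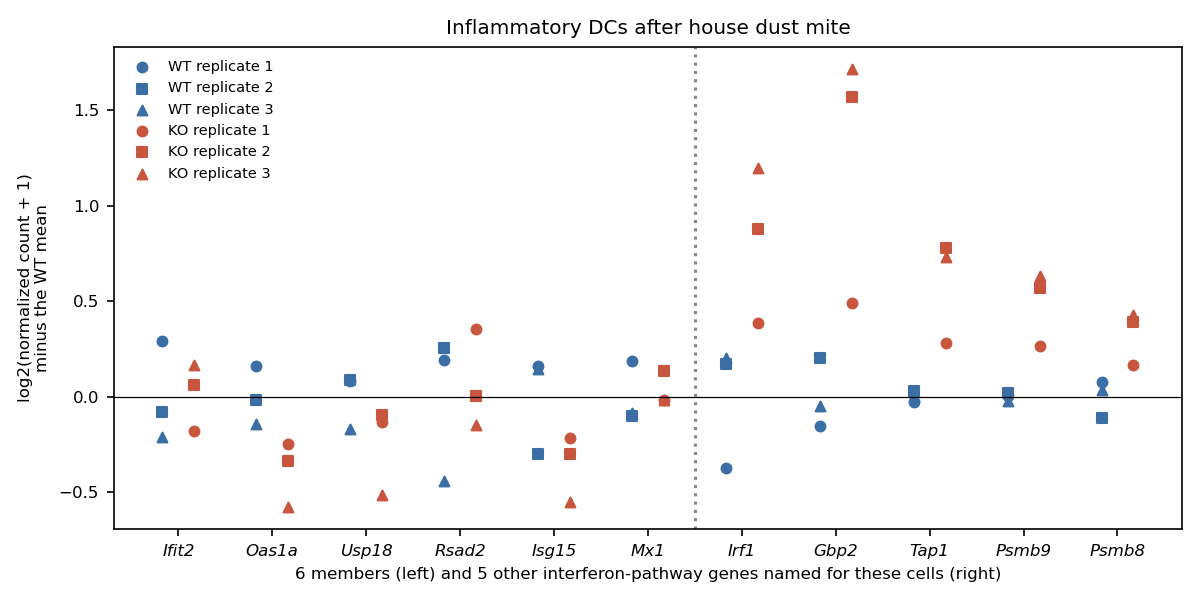
log2(normalized count + 1) minus the WT mean in each inflammatory DC library for 6 members (left of the dotted line) and 5 other interferon-pathway genes that were called (right); blue is WT, red is KO and the shape gives the replicate. KO and WT libraries overlap for most of the 6 members, while for Irf1, Gbp2, Tap1, Psmb9 and Psmb8 all 3 KO libraries lie above the WT libraries and replicate 1 lies lowest.

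In the spleen 1 of the 26 signalling genes rose in each DC type, and it was Socs3 in both (1.02 ± 0.22, limma adjusted p = 0.00395 in CD8a DCs and 1.31 ± 0.22, limma adjusted p = 0.00215 in CD11b DCs). Shares of all tested genes that rose were 1.5% in CD8a and 1.28% in CD11b DCs, and 3.63% fell in CD8a DCs. Of the further target genes Pml rose (0.77 ± 0.19, limma adjusted p = 0.0149) and Gbp7 fell (-1.20 ± 0.26, limma adjusted p = 0.00578) in CD8a DCs. These calls in CD8a DCs, and Socs3 in CD11b DCs, were each lost in at least 1 fit that left out a library.

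Members with and without a promoter match overlapped widely in their response. In lung CD11b DCs the 13 members with an ISRE core in the window had a median KO difference of 2.47, with a range from -0.31 (Ifitm2) to 5.15 (Rsad2). The 18 with a window and no match had a median of 1.77, with a range from -0.81 (Ifitm6) to 6.64 (Ifi44). In alveolar macrophages the medians were 2.10 and 1.05. The 9 members without a window, whose promoters were not searched, had medians of 2.48 in lung CD11b DCs and 2.98 in alveolar macrophages. Ifit2, Oasl1 and Ifi44, which rose strongly in lung CD11b DCs, had no match in this window, and Eif2ak2, which was not called in alveolar macrophages, had one. Ifitm2 and Ifitm3 both had a match and Ifitm1 and Ifitm6 had none. These are descriptions without a test.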

How the data were processed

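RNA of sorted cells was sequenced in 26 libraries of 10 groups (5 cell types, WT and KO), grouped by the genotype, cell type and treatment labels. The deposited signal values are read counts per gene that the authors divided by DESeq2 size factors; reads had been aligned with STAR 2.3.1s to mm10 and counted with HTSeq, per the submitters' processing notes, and the annotation and strand setting are not given in the sources used here. Dividing by the smallest step of each library recovered whole reads for 100% of values (tolerance 1e-06 reads), with size factors of 0.754 to 1.48 and 7.37 to 14.1 M reads, which limit counting precision most for genes at a few reads. No series column was left unused.

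The test was limma 3.58.1 (R 4.3.3) on log2(normalized count + 1), with 1 mean per group over all 26 libraries, a mean-variance trend and Benjamini-Hochberg adjustment within each contrast. Tested were 13311 genes with at least 10 normalized counts in at least 2 libraries, and a gene was called at an adjusted p under 0.05. Alternatives were a pseudocount of 0.25 or 8, no filter (17706 genes), edgeR 4.0.16 and DESeq2 1.42.0 on the recovered reads, equal library totals, sample weights, only the compared groups, each library left out, and 3 lung libraries left out together. The scripts were tested on simulated data. The members, the other gene lists and the tests were chosen with earlier results of these data known. Full statistics are given for the 4 called members of smallest p per direction in each KO comparison and the 3 in each other comparison, plus 10 members spread over the roles in lung CD11b DCs; all members may be named. Gene positions came from GENCODE M21 on GRCm38 and promoter windows from RefSeq on GRCm38.p6, which share coordinates with mm10. Protein sequences were not used here, and 1 pathway gene is not reported here.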

Additional observations from a re-analysis of the deposited data

Results flagged for a closer look

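Each result here is a difference between the KO effects of 2 cell types that was called by limma as a contrast of its own. In lung against spleen CD11b DCs the effect differed for 28 members. The differences on the log2 scale were 3.58 for Ifit2, 4.14 for Oasl1 and 1.55 for Parp9, larger in lung, and -0.96 for Ifitm2, larger in spleen. This Ifitm2 call was lost in 3 refits. In alveolar macrophages against lung CD11b DCs the KO effect differed for 20 members. The values were 2.31 for Ifitm3, 1.83 for Ifitm2 and 2.57 for Oas2, and -1.93 for Eif2ak2, -1.31 for Parp12 and -1.45 for Trim30a. In inflammatory against lung CD11b DCs the KO effect differed for 34 members, with -2.86 for Oas1a, -4.45 for Ifit2 and -5.03 for Oasl1. All 3 contrasts use the same lung libraries, and the cell types compared also differ in the sex of the KO libraries and, for inflammatory DCs, in treatment. The KO effect on Mtor differed too in the contrasts with spleen CD11b DCs (1.66 ± 0.34, limma adjusted p = 0.00308) and with alveolar macrophages (-1.32 ± 0.31, limma adjusted p = 0.00439). With inflammatory DCs its difference was not called (-0.04 ± 0.31, limma adjusted p = 0.96). The part of sex, treatment and Mtor was not tested.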

How the results depend on the processing

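The counts of called members in lung CD11b DCs (36) and alveolar macrophages (35) ranged from 34 to 37 over the settings that kept every library. In KO spleen CD11b DCs the count of 3 became 1 with a pseudocount of 0.25, 9 with sample weights, 20 with only the compared groups and 6 by DESeq2. The share of all tested genes called in each of these settings is not set beside the counts, and the cause was not tested. In the contrast of KO effects between spleen CD8a and CD11b DCs the count of 0 became 1 with only the compared groups. Leaving out 1 library at a time gave 2 to 4 called members in spleen CD8a DCs, 0 to 2 in spleen CD11b DCs, 34 to 36 in lung CD11b DCs, 32 to 34 in alveolar macrophages, 15 to 24 for WT lung against WT spleen CD11b DCs and 0 to 3 for the contrast of KO effects in the spleen. Leaving out the 3 lung libraries with the fewest genes, an alternative added after the data were seen, moved no count of members by over 1.5 times. Of 920 refits of named member values 887 kept their call, 33 lost it and 0 changed sign. Scaling to equal totals moved the median of all genes to -0.20 in WT lung against spleen CD11b DCs and to -0.24 in WT inflammatory against lung CD11b DCs. No paired analysis was possible from the labels, because the number in each sample title runs over the whole series and the compared groups share none. The Y-linked sums of the spleen KO libraries were alike in CD8a and CD11b DCs (977 and 932 in replicate 1, 3049 and 3295 in replicate 2). Whether these libraries share a source was not tested, and the contrasts between spleen DC types treated them as separate. Genes at a few reads, such as Ifi44 and Ifitm1 in WT alveolar macrophages, are limited by depth.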
